A study of Mus musculus with 6 samples.

Results

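Lymphatic endothelial genes were examined in DNA methylation profiles of endothelial cells sorted from the lungs of wild-type mice. The 6 genes were Prox1, Lyve1, Pdpn, Mmrn1, Ccl21a and Reln, out of 47042 autosomal genes in the RefSeq table. For each, all 1-kb windows that overlapped the gene span plus 20 kb on either side were taken, which gave 696 of the 1683697 windows with a value in every sample. Methylation was read by tagmentation-based whole-genome bisulfite sequencing in 3 samples titled aged and 3 titled mAdu. Aged was read here as the 18-month and mAdu as the 8-month mice of the design, which gives both ages but not the title each belongs to. All were wild type, with no treatment labelled, and no source used here names the sort markers. The labels do not state whether each sample is its own animal, so p-values rest on a sample-to-sample spread that may be technical only.

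The lymphatic vessels of the lung drain fluid and carry immune cells to lymph nodes, and their endothelium is a minor population beside the capillaries, arteries and veins. Its identity is set by the transcription factor Prox1. Lymphatic cells display the hyaluronan receptor Lyve1 and the glycoprotein podoplanin (Pdpn), and release the chemokine Ccl21, multimerin-1 (Mmrn1) and reelin (Reln). Methylation of CpG sites near a transcription start generally accompanies a silent gene, whereas the interiors of genes are usually methylated. In a sorted population the level of a window is an average over all cells, so fewer cells of a type and a changed level per cell cannot be told apart.

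Start-region sequence is shown first because the number of CpG sites differed widely among genes whose starts were mostly little methylated. RefSeq entries on build GRCm38.p6 matched 5 of the 6 genes. Each sequence runs from 250 bases before to 50 bases after the start, on the strand of the gene, with CpG sites in capitals. Prox1 lies at chr1:190170778-190171077 (minus strand), Reln at chr5:22344656-22344955 (minus), Pdpn at chr4:143299515-143299814 (minus), Mmrn1 at chr6:60944067-60944366 (plus) and Ccl21a at chr4:42773942-42774241 (minus).
Prox1: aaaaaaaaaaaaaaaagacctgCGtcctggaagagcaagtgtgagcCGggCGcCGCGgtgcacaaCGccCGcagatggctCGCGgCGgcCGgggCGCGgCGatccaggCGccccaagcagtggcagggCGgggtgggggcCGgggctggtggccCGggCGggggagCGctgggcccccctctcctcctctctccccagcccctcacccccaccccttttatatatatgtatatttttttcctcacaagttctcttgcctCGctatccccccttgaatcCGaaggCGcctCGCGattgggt
Reln: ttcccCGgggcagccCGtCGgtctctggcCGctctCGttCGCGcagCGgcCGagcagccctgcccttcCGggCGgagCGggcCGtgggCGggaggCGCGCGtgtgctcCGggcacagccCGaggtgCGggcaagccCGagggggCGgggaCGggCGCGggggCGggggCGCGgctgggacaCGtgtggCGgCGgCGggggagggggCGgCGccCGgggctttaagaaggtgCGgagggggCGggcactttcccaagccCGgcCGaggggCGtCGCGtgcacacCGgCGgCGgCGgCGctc
Pdpn: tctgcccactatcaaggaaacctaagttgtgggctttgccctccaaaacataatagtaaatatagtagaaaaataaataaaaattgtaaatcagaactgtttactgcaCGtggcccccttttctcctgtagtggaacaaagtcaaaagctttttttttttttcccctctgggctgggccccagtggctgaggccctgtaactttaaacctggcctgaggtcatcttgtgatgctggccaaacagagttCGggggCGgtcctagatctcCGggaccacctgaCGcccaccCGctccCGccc
Mmrn1: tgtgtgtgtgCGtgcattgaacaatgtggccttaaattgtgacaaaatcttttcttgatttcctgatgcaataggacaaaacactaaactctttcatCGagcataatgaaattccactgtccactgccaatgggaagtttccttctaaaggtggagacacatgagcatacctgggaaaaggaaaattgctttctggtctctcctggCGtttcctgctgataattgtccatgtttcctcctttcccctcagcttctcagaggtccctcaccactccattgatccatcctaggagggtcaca
Ccl21a: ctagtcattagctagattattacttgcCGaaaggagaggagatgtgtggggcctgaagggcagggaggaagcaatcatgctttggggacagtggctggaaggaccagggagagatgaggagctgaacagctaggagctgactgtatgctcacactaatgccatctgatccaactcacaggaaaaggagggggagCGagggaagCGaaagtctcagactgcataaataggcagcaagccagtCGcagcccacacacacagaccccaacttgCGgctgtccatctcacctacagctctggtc

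Reln held 47 CpG sites in its 300 bases and Prox1 held 25, against a median of 7 over the 32851 promoters of the table. Pdpn held 7, Ccl21a 5 and Mmrn1 3. A second Prox1 entry, inside the gene at chr1:190169466-190169765 (minus), held 14 CpG sites and is not shown. It lies in the window from 190169001 to 190170000, outside the start region as taken here. The GC box GGGCGG, searched on both strands, occurred 6 times in Reln and 2 times each in Prox1 and Pdpn, and 35.7% of all promoters hold it. The letters TATAAA occurred once in Prox1, on the strand opposite to the one shown (13.6% of promoters hold them on either strand). AACAAT, the core of a SOX motif, occurred once in Mmrn1 (10.7%). Such matches describe the letters of the window and are not binding sites.

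Around the start, Prox1, Reln, Pdpn and Mmrn1 carried under 20% methylation in lung endothelial cells of both ages, and Lyve1 somewhat more. The start region was taken as the windows from 1000 bp outside to 500 bp inside the start edge, and for Lyve1, whose strand was not listed in the sequence table, as the less methylated edge. Over all 6 samples the level was 2.36% at Prox1, 2.51% at Reln, 9.93% at Pdpn, 11.1% at Mmrn1 and 23.2% at Lyve1. The median over 45115 genes was 61.4%. There too the less methylated edge was taken where no strand was listed, and 25748 of the 47042 autosomal genes had a strand. Prox1 and Reln overlapped in their sample ranges, as did Pdpn and Mmrn1, while these pairs did not overlap each other and Lyve1 lay above all 4. Ccl21a, at 64.4% on average, is described separately because its values split between extremes.

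**Figure D1:**
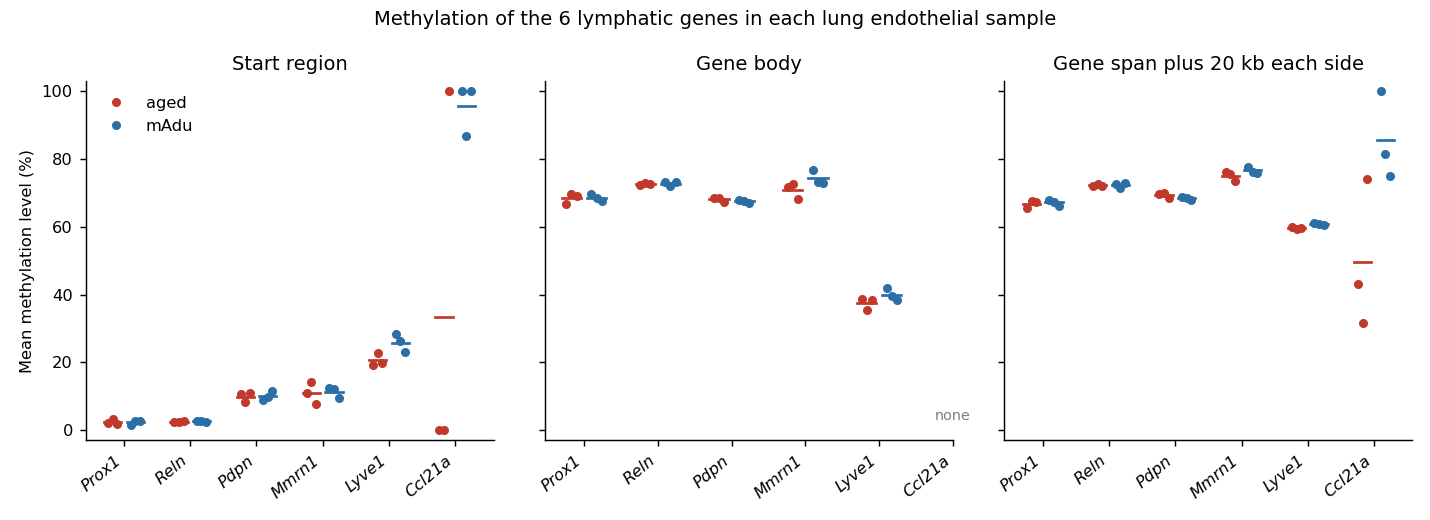
Methylation level (%) of each sample over the start region, the gene body and the gene span plus 20 kb on either side; points are samples and bars are group means (3 aged, left, and 3 mAdu, right, for each gene). Start regions of Prox1, Reln, Pdpn and Mmrn1 lie under 15% in all samples, Lyve1 has the lowest body (38.7%), and Ccl21a, which has too few windows for a body value, spreads over the whole scale.

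Beside genes with as few CpG sites in the 300 bases around the start, the start regions of Mmrn1 and Pdpn were little methylated. Levels were taken over whole 1-kb windows, so they also cover CpG sites outside the 300 bases counted. The Mmrn1 level rests on 1 window. Among 1683 other genes with exactly 3 CpG sites in the same 300 bases the median level was 71.6%, and 0.832% of them had a lower level than Mmrn1. Among 655 genes with 7 sites the median was 66.7%, and 4.43% lay below Pdpn. Prox1 also stood low among the 227 genes with 25 sites, whose median was 19.9%, with 7.49% of them lower. Reln was closer to the middle of the 25 genes with 47 sites, whose median was 4.53% and of which 28% were lower. These shares describe levels across genes, which share libraries and are not replicates.

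**Figure D2:**
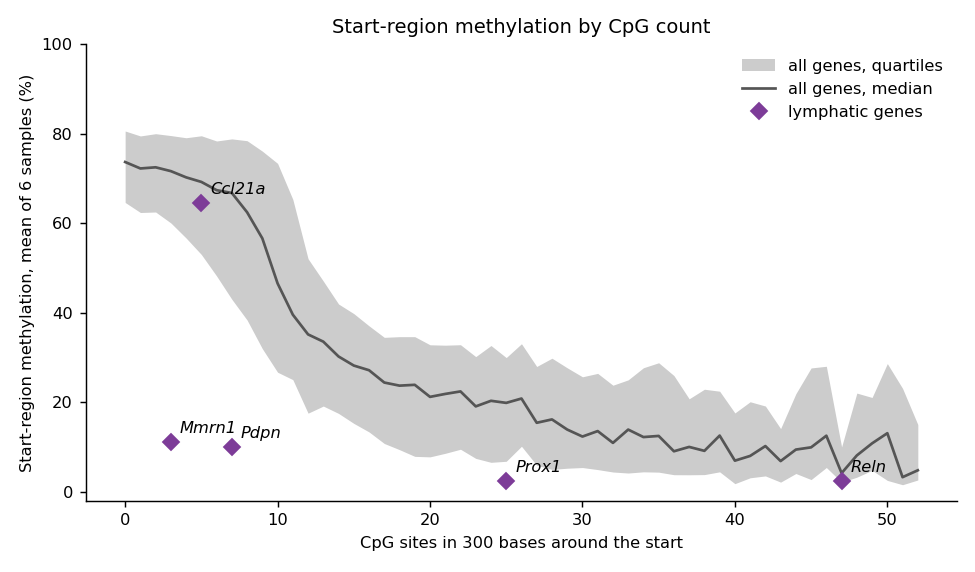
Start-region methylation (%, mean of 6 samples) against the number of CpG sites in the 300 bases around the start; the line is the median and the band the quartiles of all genes with that CpG count, for counts with at least 20 genes. Mmrn1 (11.1%, 3 sites) and Pdpn (9.93%, 7 sites) lie under the band. Ccl21a (64.4%, 5 sites) lies near the median line only as an average, since its samples were under 0.01% or between 86.7% and 100%.

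Away from the start the genes returned to levels usual for the genome, apart from Lyve1. Gene bodies were measured from 500 bp inside each edge and needed 3 windows, which Ccl21a, of 1132 bp, did not have. Bodies averaged 67.8% at Pdpn, 68.6% at Prox1, 72.7% at Mmrn1, 72.7% at Reln and 38.7% at Lyve1, against a median of 73.1% over 28922 genes. Only 3.34% of gene bodies were lower than that of Lyve1, whose range over samples did not reach those of the other 4, which overlapped between neighbours. General endothelial markers (Cdh5, Pecam1, Kdr, Tek, Egfl7, Erg and Sox17; Cldn5 was too short) had a median body level of 40.2%, whereas epithelial markers were at 69.6%, leukocyte markers at 70.5% and fibroblast and mural cell markers at 72.2%. Start regions of the same classes had medians of 23%, 29.6%, 62.8% and 26%, and the 6 lymphatic genes 10.5%. Body levels within classes overlapped. They ran from 4.3% to 66.3% in general endothelial and from 1.89% to 75.8% in epithelial markers. Leukocyte markers ran from 66.4% to 76%, and fibroblast and mural cell markers from 55.3% to 75%. Alveolar type 1 markers, named below, had a median body level of 57.55%. These lists were chosen with earlier results of these data known, and the values are descriptive.

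With age, no lymphatic gene passed. Limma called 0 of 6 start regions, 0 of 5 bodies and 0 of 6 loci (gene span plus 20 kb) at an adjusted p under 0.05, where the background over all genes was 0.0222% of start regions, 0.00346% of bodies and 0% of loci. At an unadjusted p under 0.05 there were 1 start region (Lyve1), no body and 2 loci (Lyve1 and Ccl21a), against 4.94%, 5.08% and 4.58% of all genes. Limma called 0 of the 696 windows (0.0211% of all windows), and 38 (5.46%) had an unadjusted p under 0.05, as did 4.67% of all windows. Of those, 18 lay in Ccl21a, and the other 5 genes had 20 of 660 (3.03%). Among start regions, every aged sample lay below every mAdu sample in 1 (Lyve1) and above in none. The background was 5.13% below and 4.88% above. Among bodies, 1 (Mmrn1) lay wholly below and none above, against 5.55% and 4.53%. Among loci, 2 (Lyve1 and Ccl21a) lay wholly below and none above, against 5.8% and 3.92%. At Ccl21a the margin was between 74.1% in aged replicate 3 and 74.9% in mAdu replicate 3. Windows wholly below numbered 35 and wholly above 35, against 5.28% and 4.76% of all windows.

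Prox1, the homeobox factor that specifies and maintains lymphatic fate (chromosome 1, 190118035 to 190170827), had a broad unmethylated region. A run of 8 adjacent windows under 20%, from 190168001 to 190176000, covered the start and reached into the neighbouring transcript Prox1os. The windows next to the run on either side were not listed, so its ends, the same in every sample, were set by the listing. At Lyve1, Pdpn and Reln the runs under 20% at the start were shorter in every sample. Mmrn1 cannot be compared, because neither neighbour of its start window was listed. Over the run the level was 3.49%, 4.17% and 2.83% in aged and 3.37%, 3.74% and 3.53% in mAdu samples. The lowest window (190169001 to 190170000) was at 0.444% ± 0.179 in aged and 0.608% ± 0.304 in mAdu samples (SD, n = 3 each). The groups overlapped over the run and in its lowest window.

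Other partly methylated windows of Prox1 lay within the gene and in its flanks. A trio from 190154001 to 190157000, centred 15.3 kb inside the gene, was at 38.7%, 27.5% and 38.5% in aged and 37.8%, 32.7% and 35.7% in mAdu samples. Windows at -10.7 and -19.7 kb from the start, on the upstream side within Prox1os, were at 35.3% and 26.4% in aged and 30.2% and 27.7% in mAdu samples. The groups overlapped in each of these windows. The largest difference without overlap was -9.19 points at 190158001 to 190159000 (49.9% ± 9.63 in aged and 59.1% ± 2.33 in mAdu samples), and in the other direction 7.57 points at 190185001 to 190186000 (71.5% ± 0.87 and 63.9% ± 4.68, aged and mAdu). Both had an adjusted p of 0.978. Start-region levels were 2.05%, 3.33% and 1.79% in aged and 1.41%, 2.78% and 2.81% in mAdu samples, with a difference of 0.0558 points (95% interval -1.42 to 1.54, adjusted p = 0.997).

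Lyve1, the hyaluronan receptor also carried by some tissue macrophages (chromosome 7, 110850607 to 110862953), was lowly methylated over much of its length. A run of 9 adjacent windows under 60%, from 110858001 to 110867000, held the start edge, and its lowest window (110860001 to 110861000, 2.45 kb inside the gene) was at 2.3% ± 1.79 in aged and 2.09% ± 1.43 in mAdu samples. A second trough 7.45 and 8.45 kb inside the gene was at 11.2% in both windows in aged and at 11.6% and 12.5% in mAdu samples. Between the troughs, the windows from 110856001 to 110858000 averaged 75% and 78.8% over all samples. The lowest window of the locus belonged to the edge of the neighbouring Rnf141 (110843001 to 110844000, 0.504% in aged and 1.05% in mAdu samples), and another low window lay within Mrvi1 (110877001 to 110878000, 5.63% and 5.36%, aged and mAdu).

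Among the 5 genes with few or no extreme values, Lyve1 had the largest age difference at the start region, although it did not pass. The start region was at 19.3%, 22.7% and 19.8% in aged and 28.3%, 26.2% and 22.9% in mAdu samples. All 3 aged samples lay below all 3 mAdu samples, by a narrow margin between aged replicate 2 and mAdu replicate 3. The difference was -5.2 points (SE 1.6, 95% interval -9.05 to -1.36, unadjusted p = 0.0156, adjusted p = 0.974). Of its windows, the one at the edge (110862001 to 110863000) had 4.95%, 6.78% and 4.38% in aged and 18.7%, 11.7% and 9.62% in mAdu samples and an adjusted p of 0.978. There mAdu replicate 1 stood above the other mAdu samples.

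Mean levels over the wider Lyve1 locus were also lower in aged samples, by smaller amounts. The run of 9 windows was at 27.5%, 24.6% and 26.7% in aged and 31.5%, 28.9% and 29.2% in mAdu samples, and the aged mean was the lower in 8 of its windows. The body was at 38.8%, 35.4% and 38.3% in aged and 41.8%, 39.4% and 38.5% in mAdu samples, where the groups overlapped (difference -2.4 points, adjusted p = 0.976). That difference was -1.36 points without aged replicate 2, -1.44 without mAdu replicate 1 and -0.842 when the body was taken from 2000 bp inside each edge. The locus was at 59.9%, 59.3% and 59.6% in aged and 61.2%, 60.9% and 60.6% in mAdu samples (difference -1.3 points, SE 0.402, adjusted p = 0.999), and as the median over windows it differed by -0.505 points. Of its 48 windows, 7 lay wholly below in aged (14.6%) and 3 wholly above (6.25%), against 5.28% and 4.76% of all windows, and neighbouring windows are not independent. Largest in the opposite direction was 110840001 to 110841000 within Rnf141, at 55.6% ± 2.44 in aged and 44.7% ± 8.68 in mAdu samples. Start regions of leukocyte markers, a class whose macrophages can carry Lyve1, had a median difference of 0.0412 points. Of these, 3 of 6 were higher and 3 lower in aged. The 1 wholly lower was Cd68, at 62.2% ± 0.255 in aged and 68.4% ± 1.81 in mAdu samples (difference -6.15 points, limma adjusted p = 0.974). General endothelial markers had a median start-region difference of 0.158 points with 4 of 8 higher. The part of these cell types in the Lyve1 values was not tested.

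**Figure D3:**
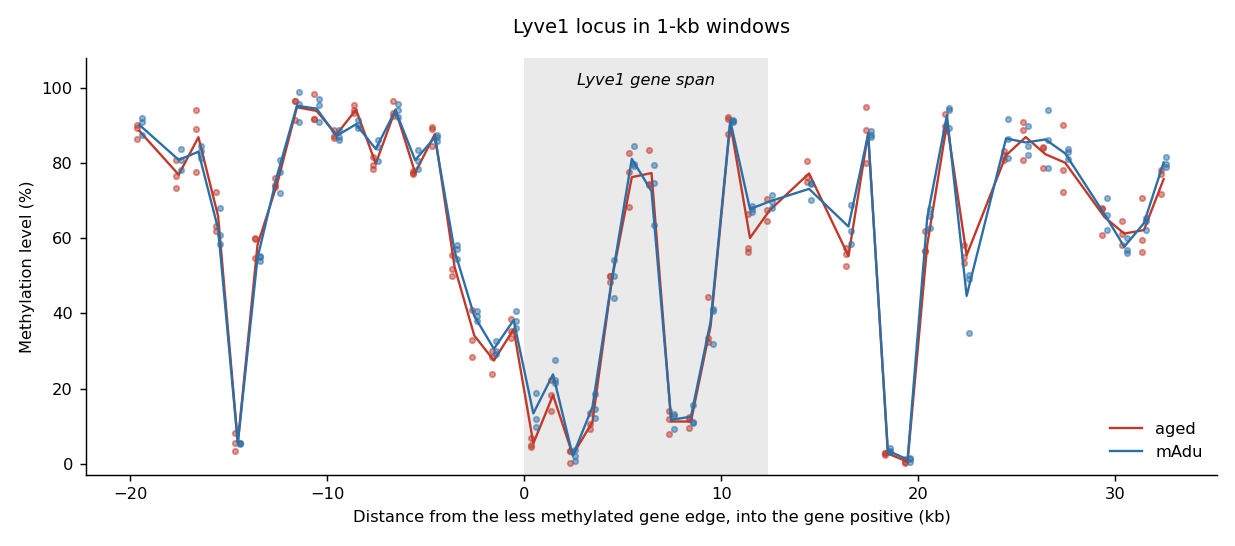
Methylation level (%) of the 48 listed 1-kb windows of the Lyve1 locus against distance (kb) from its less methylated edge; points are samples, lines are group means of 3 aged and 3 mAdu samples, and the shaded band is the gene. Troughs lie at the edge, at 7.45 to 8.45 kb inside the gene, in Rnf141 (18.5 to 19.5 kb) and in Mrvi1 (-14.6 kb), and the aged line runs below the mAdu line at the edge.

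Pdpn, a surface glycoprotein that binds the platelet receptor CLEC-2 and also marks alveolar type 1 epithelium (chromosome 4, 143267409 to 143299564), had a short unmethylated start. Its lowest window (143299001 to 143300000) was at 1.58%, 1.58% and 1.6% in aged and 1.55%, 1.27% and 1% in mAdu samples. The adjacent window was at 12.7% ± 1.02 and 12.9% ± 0.777 on the gene side, aged and mAdu, and the first windows at 60% or more lay outside a run of 7 windows. That run (143296001 to 143303000) was at 30.5%, 30.4% and 29.5% in aged and 26.5%, 27.9% and 29.3% in mAdu samples. The aged mean was the higher by 2.27 points, and every aged sample lay above every mAdu sample.

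Over its locus Pdpn held 7 windows wholly higher in aged (10.3%) and 0 wholly lower among 68, against 4.76% and 5.28% of all windows, and neighbouring windows are not independent. The largest was at the far end of the gene (143268001 to 143269000), at 84% ± 0.876 in aged and 78.5% ± 3.57 in mAdu samples (adjusted p = 0.978). The locus was at 69.6%, 69.8% and 68.6% in aged and 68.9%, 68.5% and 68% in mAdu samples, a difference of 0.883 points (95% interval -0.316 to 2.08, adjusted p = 0.999) with overlap of the groups. The start region differed by -0.148 points (95% interval -2.56 to 2.27). Alveolar type 1 markers (Ager, Hopx, Aqp5 and Cav1) had a median start-region level of 35% and a median difference of -0.178 points. Their levels were far apart, from 9.5% at Cav1 to 65.8% at Hopx. A partly methylated window of Pdpn lay in its downstream flank (143258001 to 143259000), at 32.5% ± 5.63 in aged and 31.3% ± 2.5 in mAdu samples.

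Mmrn1, which encodes the large secreted protein multimerin-1 that binds coagulation factor V (chromosome 6, 60944317 to 60989378), had a low start seen in a single listed window. This window (60944001 to 60945000) was at 11%, 14.1% and 7.6% in aged and 12.5%, 12.2% and 9.38% in mAdu samples (difference -0.46 points, 95% interval -4.59 to 3.67). The table listed 45 of the 86 windows that the locus spans, and neither neighbour of the start window is listed, so the width of the low start is unknown. An upstream window that overlaps no gene (60935001 to 60936000, at -8.82 kb from the start) was at 19.9%, 20.6% and 26% in aged and 18.1%, 18.8% and 19.9% in mAdu samples. Aged samples were all the higher there, with aged replicate 1 barely above mAdu replicate 3, and the window did not pass (3.24 points, adjusted p = 0.978).

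A pair of windows inside Mmrn1, 7.18 and 8.18 kb from the start, varied more between samples than any other of the gene. The window from 60951001 to 60952000 was at 47.1%, 97.1% and 8.7% in aged and 92.4%, 95.9% and 83.9% in mAdu samples. The next was at 51.3%, 40.4% and 7.87% in aged and 99.2%, 42.7% and 38.6% in mAdu samples. The spread lay within groups as well as between them, and neither window passed. The body was at 71.8%, 72.6% and 68.2% in aged and 76.9%, 73.3% and 73% in mAdu samples, wholly lower in aged (difference -3.5 points, SE 1.55, adjusted p = 0.976). Without the pair, a choice made after seeing the data, that difference was -0.9 points, and that of the locus -0.0817 in place of -1.56 points. Without aged replicate 3 the body differed by -2.16 and the locus by -0.773 points, and without mAdu replicate 1 by -2.27 and -1.02 points. Elsewhere in the gene, 60962001 to 60963000 was at 52% ± 6.81 in aged and 60.3% ± 0.904 in mAdu samples, and upstream 60933001 to 60934000 was at 88% ± 1.95 and 81% ± 5.39, aged and mAdu, each without overlap and with an adjusted p of 0.978.

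Reln, the gene of the secreted glycoprotein reelin (chromosome 5, 21884454 to 22344705), is by far the longest of the 6 and supplied 416 of the 696 windows. Its start held 3 adjacent windows under 20% in every sample (22343001 to 22346000). The start region was at 2.31%, 2.45% and 2.61% in aged and 2.57%, 2.65% and 2.44% in mAdu samples, and the difference of -0.0944 points had a 95% interval of -0.915 to 0.727. The lowest window (22344001 to 22345000) was at 1.41% ± 0.835 in aged and 0.958% ± 0.136 in mAdu samples. The next window into the gene was at 5.39% ± 0.403 and 5.73% ± 2.07, aged and mAdu. Of the 6 start regions, that of Reln had the smallest SD in both groups.

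The interior of Reln was methylated with scattered dips. Its body was at 72.5%, 72.9% and 72.5% in aged and 73.1%, 71.9% and 73.3% in mAdu samples (difference -0.111 points, 95% interval -1.4 to 1.18). Dips included 22335001 to 22336000, 9.2 kb from the start, at 21.1% ± 4.59 in aged and 21.3% ± 3.06 in mAdu samples, and 22135001 to 22136000 at 13.8%, 14% and 20.1% in aged and 20%, 22% and 20.5% in mAdu samples. A further dip over the pseudogene Dnaja1-ps (21951001 to 21952000) was at 40.3% ± 3.31 and 34.6% ± 2.59, aged and mAdu. The window with the smallest p of all 696 was 22249001 to 22250000, 95.2 kb inside the gene, at 50.3%, 36% and 37.9% in aged and 65.6%, 58.3% and 66.9% in mAdu samples. It was lower by 22.2 points in aged without overlap, and its unadjusted p of 0.00219 became 0.978 after adjustment over all windows.

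**Figure D4:**
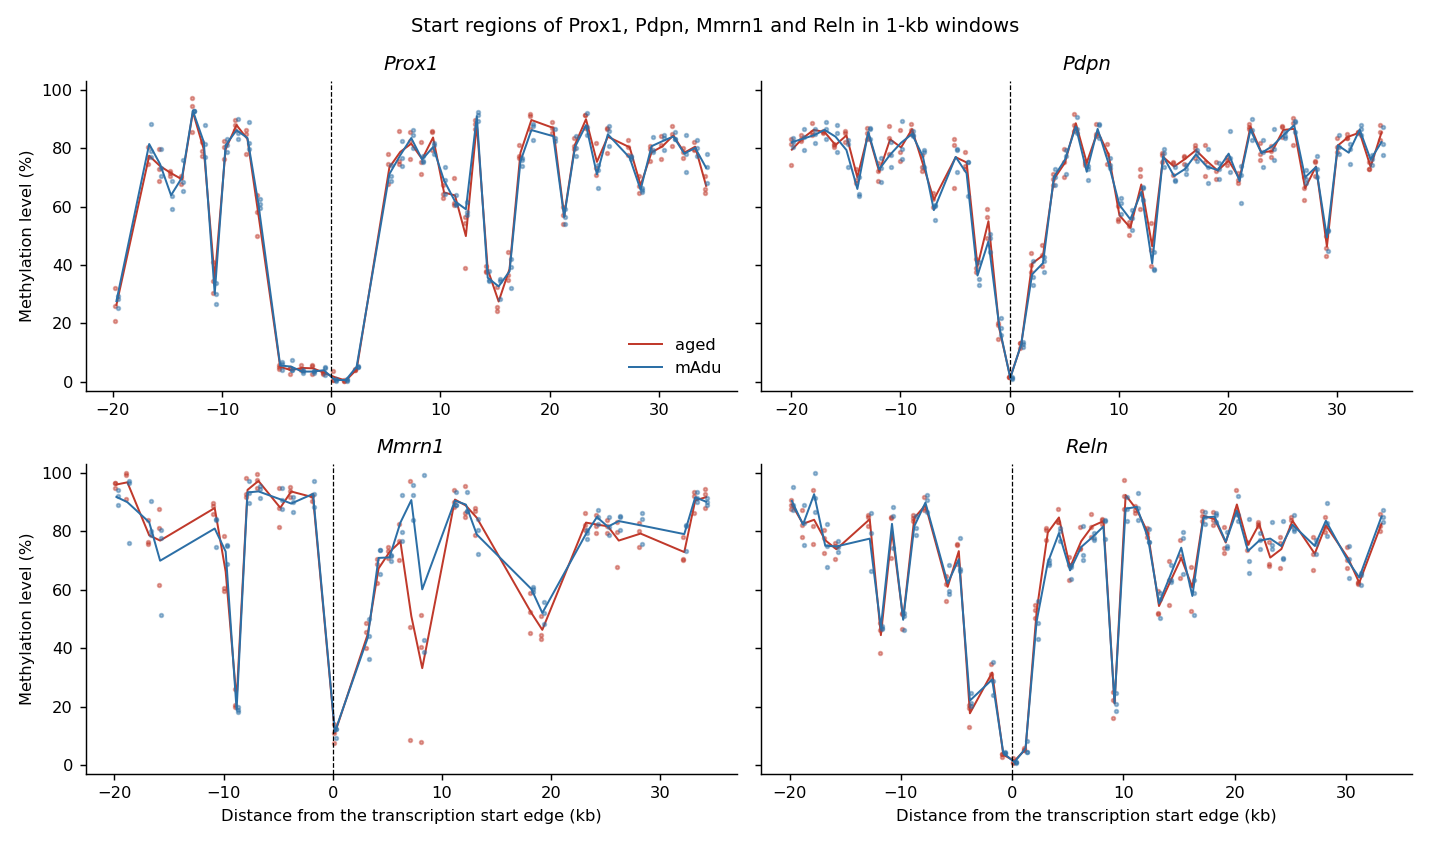
Methylation level (%) of 1-kb windows from 20 kb before to 35 kb after the start edge of Prox1, Pdpn, Mmrn1 and Reln; points are samples and lines are group means of 3 aged and 3 mAdu samples, with straight lines across windows not listed. Prox1 shows a flat valley of 8 windows, Pdpn and Reln shorter dips, and Mmrn1 a single low window with another at -8.82 kb; at the Mmrn1 pair 7.18 and 8.18 kb inside the gene the group means differ by -39.7 and -27 points, and samples of both groups scatter.

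Ccl21a, which encodes the chemokine that draws Ccr7-bearing dendritic cells and T cells into lymphatic vessels (chromosome 4, 42772860 to 42773991), could not be read as the other genes were. All 36 of its windows held an extreme value, within 0.01 points of 0 or 100%, in 1 or more samples, as did 8 Reln windows, no window of the other 4 genes and 1.72% of all windows. In the pair of windows over the gene, aged replicates 1 and 2 were under 0.01% and aged replicate 3 was at 100%, whereas mAdu replicates 1 and 3 were at 100% and mAdu replicate 2 lay between 83.5% and 85.8%. Samples of the aged group thus stood at both ends of the scale. The locus was at 43.2%, 31.7% and 74.1% in aged and 100%, 81.6% and 74.9% in mAdu samples (difference -35.8 points, 95% interval -66.3 to -5.36, adjusted p = 0.999).

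Along the Ccl21a locus the values changed in long smooth steps instead of from window to window. The median change between adjacent listed windows, taken as the median over samples, was 7.49e-10 points, against 8.19 to 14.8 points at the other 5 genes and 9.83 points over all windows. In mAdu replicate 2, whose values were never extreme here, the level ran in an even curve between 56.1% and 98.5%. On the upstream side of the gene, 16 of 16 windows were under 0.01% in aged replicates 1 and 2 and within 0.01 points of 100% in aged replicate 3 and mAdu replicates 1 and 3. The lowest mean was that of 42760001 to 42761000 on the downstream side, with 99.9%, 100% and under 0.01% in aged and 100%, 59.2% and 0.391% in mAdu samples. The stretch of listed windows with such values ran on to both sides, from 42359001 to 42842000, and took in 368 windows and the neighbouring chemokine gene Ccl19. Ccl21a has close copies on the same chromosome in the RefSeq table (Ccl21b, Ccl21c and Ccl21d), so reads may be shared between them. Read depth and CpG coverage per window are unknown, so the 0 and 100% values here and in the 8 Reln windows may be products of smoothing or of very few reads and not measurements of each window, which was not tested.

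The calls at Ccl21a turned on a single sample. Without aged replicate 3, limma called 20 of the 36 windows, all lower in aged, against 0.0494% of all windows under that setting. The called windows were consecutive among those listed, and neighbouring windows are not independent. Limma also called the start region (difference -95.6 points, adjusted p = 0.0114), against 0.0244% of start regions, where with all samples it called none (start region -62.2 points, adjusted p = 0.974). Its start-region levels were under 0.01%, under 0.01% and 100% in aged and 100%, 86.7% and 100% in mAdu samples. In Reln the window from 22089001 to 22090000 was of the same kind, with 100%, 100% and under 0.01% in aged and under 0.01% in all 3 mAdu samples, and was called when aged replicate 3 was left out. Another Reln window (22085001 to 22086000) was called without aged replicate 2, as was 0.0449% of all windows.

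**Figure D5:**
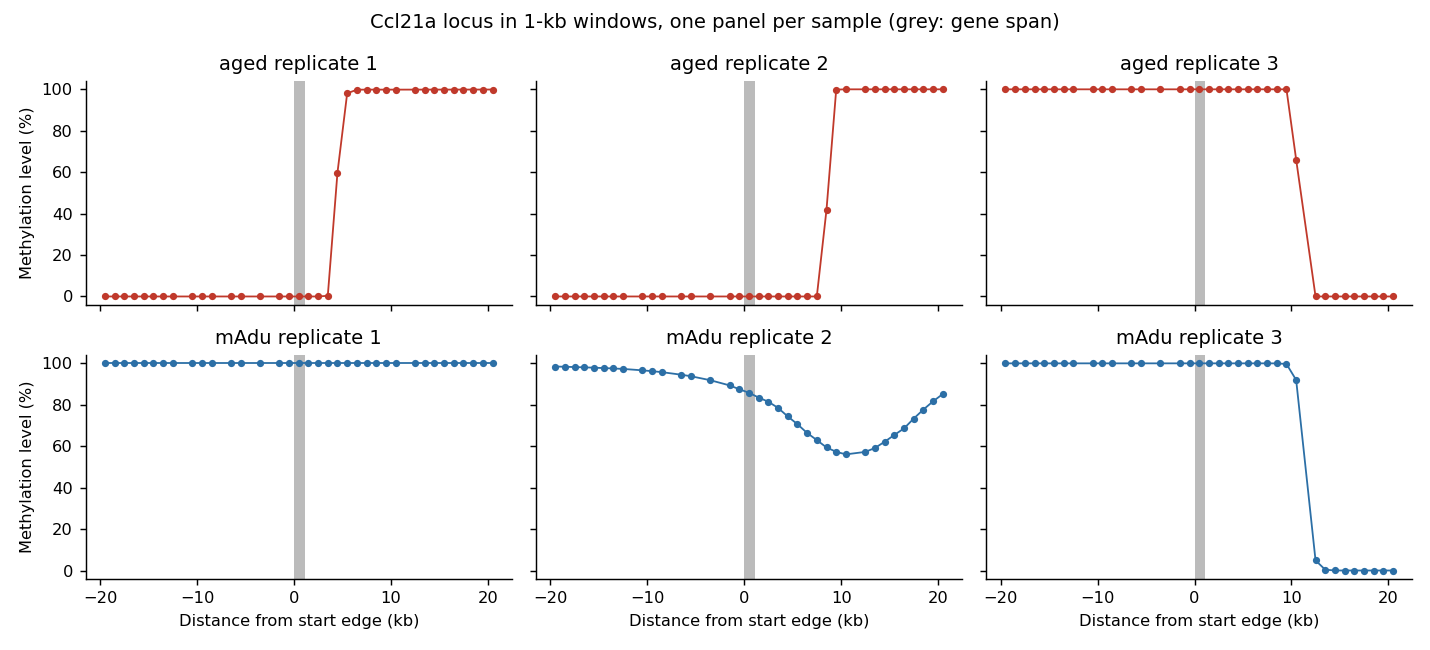
Methylation level (%) of the 36 listed 1-kb windows of the Ccl21a locus against distance (kb) from the start edge, with aged samples in the upper row and mAdu samples in the lower row; the grey band is the gene. Aged replicates 1 and 2 are at 0 over the gene, aged replicate 3 and mAdu replicates 1 and 3 at 100%, and mAdu replicate 2 follows a smooth curve.

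Other genes of lymphatic development showed no call with age. Of 22 listed genes 21 had a start region (Klhl4 was not among the autosomal genes), and 0 passed in any region. Start regions were higher in aged for 10 and lower for 11, with a median difference of -0.0215 points against -0.00047 over all genes. Bodies were higher for 6 and lower for 14 of 20 (median -0.255, all genes -0.0494), and loci higher for 6 and lower for 15 of 21 (median -0.169, all genes -0.0707). The 6 lymphatic genes themselves had median differences of -0.304 at start regions and -0.816 at loci. Both include Ccl21a, at -62.2 and -35.8 points, which could not be read as the other genes were. The remaining loci differed by -1.56 (Mmrn1), -1.3 (Lyve1), -0.332 (Prox1), -0.1 (Reln) and 0.883 points (Pdpn). Their start regions differed by -5.2 (Lyve1), -0.46 (Mmrn1), -0.148 (Pdpn), -0.0944 (Reln) and 0.0558 points (Prox1). Bodies, without Ccl21a, had a median of -0.112 over 5 genes. Over all genes, 49.98% of start regions, 47.4% of bodies and 45.1% of loci were the higher in aged.

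Among the other genes the smallest p at start regions belonged to Vegfc, the main growth factor of lymphatic vessels, at 25.7%, 25.2% and 24.3% in aged and 24.3%, 21.9% and 21.9% in mAdu samples (difference 2.39 points, adjusted p = 0.974). The co-receptor gene Nrp2 was at 10.8%, 10.2% and 9.63% in aged and 9.52%, 7.96% and 8.89% in mAdu samples (1.43 points). Every aged sample lay above every mAdu sample at both genes, though at Vegfc aged replicate 3 and mAdu replicate 1 were nearly equal. The chemokine scavenger Ackr2 came next, at 39.1% ± 1.56 in aged and 41.3% ± 1.84 in mAdu samples (SD, n = 3 each), with overlap. Genes picked for a small p tend to lack overlap. Over the list, 2 of 21 start regions lay wholly higher in aged and 0 wholly lower, against 4.88% and 5.13% of all genes. In bodies the smallest p was that of Gata2, a transcription factor of lymphatic valves, at 5.37%, 4.75% and 4.87% in aged and 6.07%, 5.75% and 5.91% in mAdu samples (difference -0.909 points, adjusted p = 0.974). Angpt2, a ligand of the Tek receptor, was at 73.4% ± 0.147 in aged and 74.5% ± 0.663 in mAdu samples, also wholly lower in aged. Over the list, 2 of 20 bodies lay wholly lower in aged and 0 wholly higher, against 5.55% and 4.53% of all genes. The Ackr2 body was at 61% ± 0.948 and 59.9% ± 0.439, aged and mAdu.

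The next genes were named for their known part in lymphatic development. Start regions were at 25.7% ± 1.8 in aged and 24.9% ± 1.14 in mAdu samples for Flt4, the receptor of Vegfc. Sox18, which switches on Prox1, was at 6.69% ± 1.14 in aged and 6.29% ± 1.11 in mAdu samples. Nr2f2, a nuclear receptor of venous and lymphatic cells, was at 50.3% ± 2.35 and 53.5% ± 4.79, aged and mAdu. Foxc2, a transcription factor of valve formation, was at 2.96% ± 0.46 and 3.06% ± 0.303, aged and mAdu. The groups overlapped in each of these start regions. Bodies of Flt4 were at 61.9% in both groups, of Nr2f2 at 36.4% in aged and 38.2% in mAdu samples, and of Foxc2 at 4.07% in aged and 4.32% in mAdu samples.

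Genes with the most similar levels were found as the smallest root mean square distance over 12 values, the start region and body in each of the 6 samples, among protein-coding genes. Prox1 was nearest to Eif5 (0.957 points) and Trim35 (0.959), and Reln to Ankrd10 (0.444) and Negr1 (0.633). Pdpn was nearest to Mettl1 (0.918) and Abhd4 (1.11), and Mmrn1 to Batf3 (1.85) and Mapre2 (1.94). Lyve1 had more distant neighbours, Nrgn (2.23) and Tmub1 (2.47). The measure joins genes of like level and carries nothing about their function.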

How the data were processed

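Per the labels' protocols, 30 ng of DNA per sample was tagmented, bisulfite-treated and sequenced as 100 bp paired reads. BWA 0.7.8 and build mm10 are named in the submitters' processing notes; no source used here names the CpG caller, a coverage filter or smoothing. The authors deposited a mean methylation fraction per sample for 1684140 windows of 1000 bp on 19 autosomes, without coverage, so depth is unknown. Fractions were multiplied to percent. Windows complete in all 6 samples were averaged over start regions (1000 bp outside to 500 bp inside), bodies and loci, with genes from RefSeq.

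Groups were compared with limma 3.58.1 (R 4.3.3, variance trend, no replicate block), Benjamini-Hochberg adjustment over all windows or genes, and a threshold of 0.05; the fits over loci, bodies and start regions were tested on simulated data. Same-numbered samples did not deviate together, so numbers were not treated as pairs. Tables and figures used Python 3.11.15, pandas 2.3.3 and matplotlib 3.10.9. Members and gene lists were chosen with earlier results of these data known. Windows named were, per gene, the lowest, the lowest outside the start region and the largest difference without overlap in each direction. Partly methylated windows, runs, the variable Mmrn1 pair and the stretch around Ccl21a were picked after their values were seen. Other lymphatic genes named had the 3 smallest p in start regions or bodies, with Flt4, Sox18, Nr2f2 and Foxc2. Alternatives covered the scale, variance trend, block, extreme windows, region bounds and each left-out replicate.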

Additional observations from a re-analysis of the deposited data

How the results depend on the processing

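Over 25 results, 283 alternative values were computed, of which 260 were labelled the same. For differences and calls this label covers the direction and the side of the threshold, not the size. It was also given to the count of extreme windows, which has neither. That count was 44, against 59 with bounds of 1 and 99% and 37 where at least 3 samples had to be extreme. Leaving out 1 replicate gave between 0 and 21 called windows among the lymphatic genes, where all samples gave 0: 1 in Reln without aged replicate 2, and 20 in Ccl21a with 1 in Reln without aged replicate 3. Called start regions ranged from 0 to 1, which was Ccl21a without aged replicate 3; called bodies and loci stayed at 0. Directions turned for differences near 0. Leaving out 1 replicate, the difference ranged from -0.813 to 0.28 points for the Prox1 locus, -0.72 to 0.809 for its body and -0.413 to 0.357 for its start region. It ranged from -0.518 to 0.146 for the Reln locus, -0.523 to 0.145 for its body, -0.774 to 0.703 for the Pdpn start region and -2.06 to 1.19 for that of Mmrn1. As the median over windows, the Prox1 locus differed by 0.829 and the Reln locus by 0.163 points. From 2000 bp inside each edge, the Prox1 body differed by 0.0531 points. With start regions from 2000 bp outside to 1000 bp inside, Pdpn differed by 1.58 and Reln by 0.461 points. The cause was not tested. The Lyve1 start region ranged from -6.63 to -3.95 points without 1 replicate. Over all windows, 355 were called, against 145 on the logit scale, 185 with a replicate block and 59 without windows of extreme values. A replicate block gave 0 called windows among the lymphatic genes and changed no call there; deviations of same-numbered samples correlated at -0.00937, -0.00145 and -0.00557. Without windows of extreme values Ccl21a had no value. Without read depth, the precision of a single window is unknown.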
